A study of Arabidopsis thaliana with 8 samples.

Results

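The MADS-box floral organ identity genes are the transcription factor genes that decide which organ forms in each ring of a flower. They were AP3 (AT3G54340), PI (AT5G20240), AG (AT4G18960), SHP1 (AT3G58780), SHP2 (AT2G42830), STK (AT4G09960), SEP1 (AT5G15800), SEP2 (AT3G02310), SEP3 (AT1G24260) and SEP4 (AT2G03710). All 10 were found by locus among the 25198 genes of the deposited table, where dates stood in place of the symbols of the 4 SEP genes. They were followed in whole Arabidopsis thaliana seedlings, a stage at which these genes are mostly silent.

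Messenger RNA was sequenced from seedlings of 4 genotypes with 2 libraries each. These are chr11-/-chr17-/- (labelled chr11/17), which lacks a pair of ISWI chromatin remodelling ATPases, rlt1-/-rlt2-/- (rlt1/2), which lacks a pair of DDT-domain partners of those ATPases, fha2-/- (fha2), which lacks a forkhead-associated domain protein, and the wild type Col. All were in the Col background and were grown for 11 days on plates at 22 °C with 16 h light and 8 h dark, and RNA came from 0.05 g of tissue. The title of the series names a plant-specific ISWI subunit and pistil overgrowth, and the comparisons here ask how the transcripts of the floral organ identity genes differed in each mutant from Col and between mutants.

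The labels give no mutant alleles. Nor do they state whether replicate libraries were made from plants raised apart, so the p-values measure no more than the spread among these 8 libraries, and that spread may be technical. FHA2 was lower in fha2 than in Col (log2 fold change -3.56 ± 0.255 SE, adjusted p = 4.85e-05), and RLT2 (-3.82 ± 0.145, adjusted p = 2.46e-08) and RLT1, which the table lists as HB-1 (-0.90 ± 0.169, adjusted p = 0.00121), were lower in rlt1/2, all by edgeR. In the libraries labelled chr11/17, however, CHR11 was higher than in Col (0.61 ± 0.0837, adjusted p = 2.84e-05) and CHR17 was 0.20 ± 0.127 above it (adjusted p = 0.184, edgeR). The transcripts therefore do not check that label, and every direction given for the libraries labelled chr11/17 rests on the label alone. Library totals were 20962202 to 22012119 expected counts, so 3 counts correspond to 0.136 to 0.143 CPM of the unscaled total (levels below are CPM with TMM factors), and the 10 genes together took 263.92 to 7733.63 counts per library. The 2 libraries of each genotype differed by more than sampling noise, with a chi-square per degree of freedom of 4.31 to 12.4.

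MIKC-type MADS proteins bind a short DNA element called the CArG box as dimers, and the dimers join into larger complexes. In the ABC model of the flower, A and B class genes specify petals, B and C class genes specify stamens, and C class genes specify carpels, while D class genes specify ovules and the SEP proteins (E class) are the shared partners that hold the complexes together. Outside the flower these genes are kept silent by Polycomb repressors, and LFY, AP1, UFO and WUS switch them on in the flower bud.

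To set the start regions of members that stood apart in these libraries beside those of members at or near the floor, 250 bases before the annotated start are printed for AP3 and PI, whose products work as a dimer, for AG, and for SEP3, the most abundant member. The sequences are from the RefSeq assembly TAIR10.1, 5′ to 3′ on the gene's own strand. AP3 lies at chr3:20121315-20121564 on the minus strand, PI at chr5:6828654-6828903 on the plus strand, AG at chr4:10382606-10382855 on the plus strand and SEP3 at chr1:8596124-8596373 on the minus strand. Capitals mark GAGAGA or its reverse complement TCTCTC, a GA repeat of the kind bound by BASIC PENTACYSTEINE proteins.
AP3: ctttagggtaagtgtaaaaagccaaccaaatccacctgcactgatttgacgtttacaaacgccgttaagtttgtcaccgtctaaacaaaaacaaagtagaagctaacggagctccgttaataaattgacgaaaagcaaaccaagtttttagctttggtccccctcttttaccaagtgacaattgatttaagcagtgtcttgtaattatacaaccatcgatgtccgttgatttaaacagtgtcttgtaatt
PI: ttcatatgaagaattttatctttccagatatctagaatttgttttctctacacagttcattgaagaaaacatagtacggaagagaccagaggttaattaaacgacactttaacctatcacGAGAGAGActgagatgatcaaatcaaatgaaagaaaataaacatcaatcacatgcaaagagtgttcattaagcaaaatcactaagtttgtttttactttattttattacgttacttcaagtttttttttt
AG: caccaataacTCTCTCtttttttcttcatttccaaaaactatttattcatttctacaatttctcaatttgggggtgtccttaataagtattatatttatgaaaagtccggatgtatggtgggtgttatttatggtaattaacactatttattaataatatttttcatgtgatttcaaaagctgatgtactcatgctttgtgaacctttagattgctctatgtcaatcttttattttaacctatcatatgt
SEP3: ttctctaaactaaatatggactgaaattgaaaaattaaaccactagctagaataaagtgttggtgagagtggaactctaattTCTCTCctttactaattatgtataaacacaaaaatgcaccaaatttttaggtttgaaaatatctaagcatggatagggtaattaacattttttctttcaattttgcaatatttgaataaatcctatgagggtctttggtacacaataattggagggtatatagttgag

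The CArG box, searched as CC, then 6 bases of A or T, then GG (the same on either strand), was in 0 of 10 member windows and in 692 of 27443 windows of protein-coding genes (2.52%). GAGAGA on either strand was in 7 of 10 member windows (PI, AG, SEP2, SEP3, SEP4, SHP1 and SHP2) and in 5647 of 27443 windows (20.6%). The windows of AP3, SEP1 and STK lacked it. The GA repeat was searched for after values had been seen. A match is a run of letters and not a bound site, and a window without one shows only that these letters are not there.

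SEP1 and SEP2, and SHP1 and SHP2, are close copies, so reads could in principle be shared between them. Windows of 120 coding bases around the longest run that each pair shares show how far a short read could tell them apart, with capitals at the bases that differ. SEP1 and SEP2 are shown from coding base 25 to 144, with 14 differences, and SHP1 and SHP2 from coding base 290 to 409, with 16 differences.
SEP1: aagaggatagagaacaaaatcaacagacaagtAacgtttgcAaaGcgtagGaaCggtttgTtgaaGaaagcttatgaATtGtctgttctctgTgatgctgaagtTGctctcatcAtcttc
SEP2: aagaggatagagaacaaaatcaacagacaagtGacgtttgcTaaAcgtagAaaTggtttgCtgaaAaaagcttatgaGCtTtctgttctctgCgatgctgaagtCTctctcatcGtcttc
SHP1: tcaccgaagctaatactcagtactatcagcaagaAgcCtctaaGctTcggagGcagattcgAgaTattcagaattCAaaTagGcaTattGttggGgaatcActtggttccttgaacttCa
SHP2: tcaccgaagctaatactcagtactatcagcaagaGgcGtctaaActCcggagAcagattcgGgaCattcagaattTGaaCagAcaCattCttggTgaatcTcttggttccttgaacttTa

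Over the aligned coding bases SEP1 and SEP2 were 86.4% identical, with a longest shared run of 32 bases, and SHP1 and SHP2 were 84.6% identical, with a longest shared run of 34 bases. Counts of these pairs were estimated by the authors' software, and the levels below also include their sums.

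In the seedlings labelled chr11/17, transcripts of most floral organ identity genes stood far above Col. In the edgeR quasi-likelihood test 6 of the 8 members that passed the filter on low counts were called higher than Col (AP3, SEP1, SEP2, SEP3, SHP2 and STK) and SEP4 was called lower, where 34.8% of all genes tested were called higher and 34.4% lower. In rlt1/2 seedlings AP3, SEP1, SEP3 and SHP2 were called higher, 4 of 8, and 0 were called lower (also 0 at an unadjusted p under 0.05, with DESeq2 and with limma-voom), against 18.7% of all genes in each direction. In fha2 seedlings SEP3 was called higher, 1 of 8, against 6.33% of all genes, and SEP4 and SHP1 were called lower, 2 of 8, against 8.76%. PI and AG did not pass the filter in any comparison. SEP2 and STK reached the filter only through the libraries labelled chr11/17, and AP3 and SHP2 only through those and rlt1/2. SEP1, with 4 and 6 counts in Col, reached it only through mutant libraries. A difference from Col was therefore built into the choice of these genes, and these counts support nothing by themselves.

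Over the 8 members that passed the filter, without PI and AG, the median log2 fold change over Col was 5.79 in the libraries labelled chr11/17, 2.36 in rlt1/2 and -0.35 in fha2, while the median of all genes tested was -0.01, 0.01 and 0.01 in those 3 comparisons. With no filter on low counts the medians over all 10 members were 3.84, 1.35 and -0.17, fitted values that depend on a prior count for genes near 0. All 3 share the same 2 Col libraries. With total counts in place of TMM factors the median of all genes moved up by 0.28, 0.28 and 0.25, and calls over all genes became 9243 higher and 5227 lower for the libraries labelled chr11/17 (7255 and 7171 with TMM), 8108 and 1849 in rlt1/2 (3912 and 3912), and 6059 and 665 in fha2 (1320 and 1828). Under that scaling the members called higher and lower were 7 and 1 in the libraries labelled chr11/17 (6 and 1 with TMM, with SHP1 added at an adjusted p that rounds to 0.05, edgeR), 4 and 0 in rlt1/2, as with TMM, and 2 and 1 in fha2. In a whole-seedling sample, more cells that express a gene and more RNA per cell cannot be told apart.

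**Figure D1:**
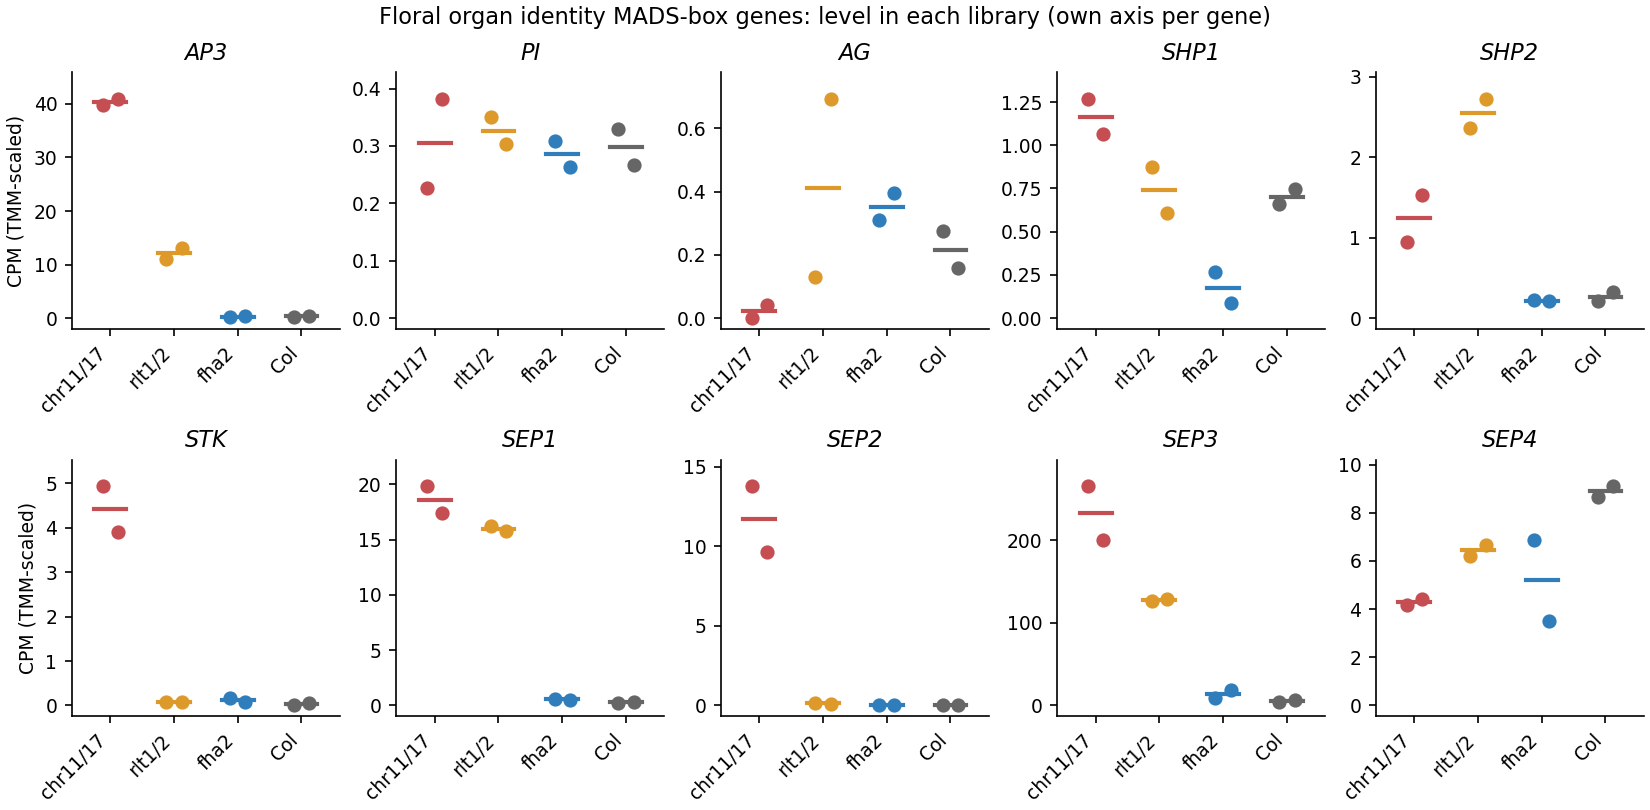
Level of each of the 10 genes in each library, in CPM with TMM scaling, with its own vertical axis starting near 0; points are libraries, and the horizontal line is the mean of the 2 libraries of a genotype. AP3, SEP1 and SEP3 are high in the libraries labelled chr11/17 and rlt1/2, SEP2 and STK in the libraries labelled chr11/17, and PI lies between 0.227 and 0.383 CPM in all 8.

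The B class genes AP3 and PI did not move together. AP3, which specifies petals and stamens, had 39.8 and 41.0 CPM in the libraries labelled chr11/17, 11.1 and 13.2 CPM in rlt1/2, 0.132 and 0.351 CPM in fha2, and 0.274 and 0.373 CPM in Col. The libraries labelled chr11/17 and rlt1/2 lay apart from each other and from the rest, and fha2 and Col overlapped at 3 to 8 counts per library. AP3 rose by 6.94 ± 0.223 on the log2 scale in the libraries labelled chr11/17 (adjusted p = 2.01e-10) and by 5.20 ± 0.253 in rlt1/2 (adjusted p = 7.69e-08), both over Col by edgeR. In fha2 it was -0.41 ± 0.546 relative to Col (adjusted p = 0.665, edgeR). Between mutants, AP3 was higher in the libraries labelled chr11/17 than in rlt1/2 by 1.73 ± 0.125 (edgeR, adjusted p = 2.53e-07).

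PI, the dimer partner of AP3, had 0.227 and 0.383 CPM in the libraries labelled chr11/17, 0.350 and 0.303 CPM in rlt1/2, 0.309 and 0.263 CPM in fha2, and 0.329 and 0.267 CPM in Col. All 4 genotypes overlapped, at 5 to 9 counts per library. The ratio of its counts to Col was 1.03 in the libraries labelled chr11/17 (exact 95% interval 0.436 to 2.52, 14 counts against 11), 1.1 in rlt1/2 (0.472 to 2.65) and 0.962 in fha2 (0.398 to 2.37). These intervals cover counting error only. By the same measure AP3 in the libraries labelled chr11/17 was 125-fold above Col (71.1 to 242, 1841 counts against 12).

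Among the C and D class genes, AG lay at the floor while STK and SHP2 stood above Col. AG, which specifies stamens and carpels and ends the growth of the floral meristem, had 0 and 1 count in the libraries labelled chr11/17, 3 and 16 counts in rlt1/2, 7 and 9 counts in fha2, and 5 and 3 counts in Col. The libraries labelled chr11/17 were the lowest of the 8, and the rlt1/2 libraries spanned the others. The AG count ratio to Col was 0.101 in the libraries labelled chr11/17 (exact 95% interval 0.00229 to 0.757, 1 count against 8), 1.91 in rlt1/2 (0.800 to 5.06, 19 against 8) and 1.63 in fha2 (0.658 to 4.39, 16 against 8). With no filter on low counts, edgeR gave AG an adjusted p of 0.0877 for the libraries labelled chr11/17 and 0.476 for rlt1/2 against Col, and of 0.0204 for fha2 against the libraries labelled chr11/17. In fha2 against those libraries AG was not called without chr11/17 replicate 1 (log2 fold change 2.89) or without fha2 replicate 2 (3.51). Levels this low are near the limit of detection in every genotype.

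STK, which specifies ovules, had 109 and 92 counts (4.94 and 3.91 CPM) in the libraries labelled chr11/17, 2 and 2 counts in rlt1/2, 4 and 2 counts in fha2, and 0 and 1 count in Col. Only the libraries labelled chr11/17 were above the level of 4 counts. The count ratio was 163 against Col (exact 95% interval 29.0 to 6478, 201 counts against 1) and 50.6 against rlt1/2 (19.5 to 188), with edgeR adjusted p-values of 3.36e-07 and 8.17e-07. In rlt1/2 and fha2 the ratios to Col were 3.22 (0.319 to 159) and 4.89 (0.593 to 225), and neither passed the test (edgeR, adjusted p = 0.367 and 0.241). STK shares 186 bases with AT4G09950 on the other strand, which had 124 and 105 counts in the libraries labelled chr11/17 and 61 and 53 in Col. With that gene's counts added the log2 fold change was 1.60 (edgeR, adjusted p = 1.02e-05).

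SHP2, which with SHP1 shapes carpels and the valve margin of the fruit, had 0.952 and 1.53 CPM in the libraries labelled chr11/17, 2.36 and 2.73 CPM in rlt1/2, 0.221 and 0.219 CPM in fha2, and 0.219 and 0.320 CPM in Col. It was the only member highest in rlt1/2 by mean CPM among those called over Col. SHP2 rose over Col by 2.18 ± 0.458 in the libraries labelled chr11/17 (adjusted p = 9.67e-04) and by 3.21 ± 0.419 in rlt1/2 (adjusted p = 9.30e-05), both by edgeR. The libraries labelled chr11/17 were below rlt1/2 by -1.03 ± 0.312 (edgeR, adjusted p = 0.0128), a call that ended without replicate 1 of chr11/17 (-0.73, adjusted p = 0.102), without replicate 2 of rlt1/2 (-0.92, adjusted p = 0.0927) and with DESeq2 (-1.02, adjusted p = 0.0803).

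SHP1 had 1.27 and 1.06 CPM in the libraries labelled chr11/17, 0.876 and 0.607 CPM in rlt1/2, 0.265 and 0.0877 CPM in fha2, and 0.658 and 0.746 CPM in Col. The fha2 libraries were the lowest, at 5.73 and 2 expected counts, and rlt1/2 overlapped Col. SHP1 was lower in fha2 than in Col by -1.96 ± 0.576 (edgeR, adjusted p = 0.0391) and was 0.73 ± 0.422 above Col in the libraries labelled chr11/17 (adjusted p = 0.144) and 0.08 ± 0.448 in rlt1/2 (adjusted p = 0.913). The call in fha2 ended without either fha2 library, either Col library or either rlt1/2 library (log2 fold change -2.93 to -1.39). Calls over all genes in this comparison also fell in those settings, and the authors' deposited table gives a q-value of 0.283 for SHP1. SHP1 overlaps GAUT15 by 447 bases on the other strand, and GAUT15 had 238 and 246 counts in fha2 and 107 and 90.4 in Col. With all counts of GAUT15 added, fha2 stood above Col by 0.84 (edgeR, adjusted p = 0.0045), the opposite direction. GAUT15 made up most of that sum, so the sum does not give the direction of SHP1. The sum of SHP1 and SHP2 was 1.30 above Col in the libraries labelled chr11/17 (adjusted p = 0.00176), 1.75 above in rlt1/2 (adjusted p = 5.13e-04) and -1.28 in fha2 (adjusted p = 0.0454, edgeR).

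The E class genes carried most of the counts. SEP3, the partner found in most complexes of petals, stamens and carpels, had 266 and 200 CPM in the libraries labelled chr11/17, 126 and 129 CPM in rlt1/2, 9.05 and 19.2 CPM in fha2, and 3.78 and 6.45 CPM in Col. No mutant overlapped Col, and the 2 fha2 libraries differed from each other more than the 2 rlt1/2 libraries did. SEP3 rose over Col by 5.50 ± 0.309 in the libraries labelled chr11/17 (adjusted p = 1.05e-08), by 4.63 ± 0.305 in rlt1/2 (adjusted p = 5.19e-07) and by 1.46 ± 0.324 in fha2 (adjusted p = 0.0121), all by edgeR. The call in fha2 ended without fha2 replicate 2 (0.82) or without Col replicate 1 (1.13), where calls over all genes in this comparison also fell. In the authors' deposited table the log2 fold change was 1.46 with a q-value of 0.167. SEP3 was above rlt1/2 in the libraries labelled chr11/17 by 0.87 ± 0.232 (edgeR, adjusted p = 0.00612), a call that DESeq2 did not make (adjusted p = 0.0946).

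SEP1, which overlaps in function with the other SEP genes, had 19.9 and 17.4 CPM in the libraries labelled chr11/17, 16.2 and 15.8 CPM in rlt1/2, 0.618 and 0.526 CPM in fha2, and 0.219 and 0.320 CPM in Col. Here the libraries labelled chr11/17 and rlt1/2 were close to each other, and fha2 lay just above Col at 12 to 14 counts against 4 to 6. SEP1 rose by 6.08 ± 0.224 in the libraries labelled chr11/17 (adjusted p = 3.86e-10) and by 5.86 ± 0.228 in rlt1/2 (adjusted p = 2.46e-08) over Col, and was 1.07 ± 0.414 above Col in fha2 (adjusted p = 0.128, and 0.0324 with total counts, edgeR). The libraries labelled chr11/17 and rlt1/2 differed by 0.22 ± 0.118 (edgeR, adjusted p = 0.127). SEP1 shares 100 bases with AT5G15790 on the other strand, which had 99.2 and 129 counts in the libraries labelled chr11/17, 141 and 124 counts in rlt1/2 and 149 and 150 in Col. With its counts added the log2 fold changes over Col were 1.50 (adjusted p = 1.37e-07) and 1.38 (adjusted p = 2.96e-06) by edgeR.

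SEP2, the closest copy of SEP1, separated the libraries labelled chr11/17 from rlt1/2. It had 304 and 227 counts (13.8 and 9.65 CPM) in the libraries labelled chr11/17, 4 and 2 counts in rlt1/2, 0 and 1 count in fha2, and 1 and 1 count in Col. The count ratio was 216 against Col (exact 95% interval 59.4 to 1785, 531 counts against 2) and 89.1 against rlt1/2 (40.7 to 244), with edgeR adjusted p-values of 1.79e-08 and 4.94e-08. In rlt1/2 the ratio to Col was 2.42 (0.432 to 24.5, edgeR adjusted p = 0.403) and in fha2 it was 0.407 (0.00690 to 7.82, edgeR adjusted p = 0.648). Thus in rlt1/2, where SEP1 had 370 and 364 expected counts, SEP2 with the windows shown above had 4 and 2. The sum of both genes was above Col by 6.52 in the libraries labelled chr11/17 (adjusted p = 2.59e-10), by 5.61 in rlt1/2 (adjusted p = 4.50e-08) and by 0.86 in fha2 (adjusted p = 0.203, edgeR).

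SEP4, the SEP gene that also acts in meristem identity, ran the other way. It had 4.17 and 4.42 CPM in the libraries labelled chr11/17, 6.22 and 6.68 CPM in rlt1/2, 6.89 and 3.51 CPM in fha2, and 8.66 and 9.12 CPM in Col. Both Col libraries were above all 6 mutant libraries. SEP4 fell by 1.05 ± 0.240 in the libraries labelled chr11/17 (adjusted p = 0.00182) and by 0.77 ± 0.235 in fha2 (adjusted p = 0.0445) relative to Col by edgeR, and in rlt1/2 it was -0.46 ± 0.230 (adjusted p = 0.135). The call in fha2 ended without fha2 replicate 2, either Col library or either rlt1/2 library (log2 fold change -0.81 to -0.37), where calls over all genes also fell. It also ended with total counts (-0.52, adjusted p = 0.104) and with the 2 genotypes alone (-0.77, adjusted p = 0.0551) by edgeR. The authors' deposited table gives a q-value of 0.0988.

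**Figure D2:**
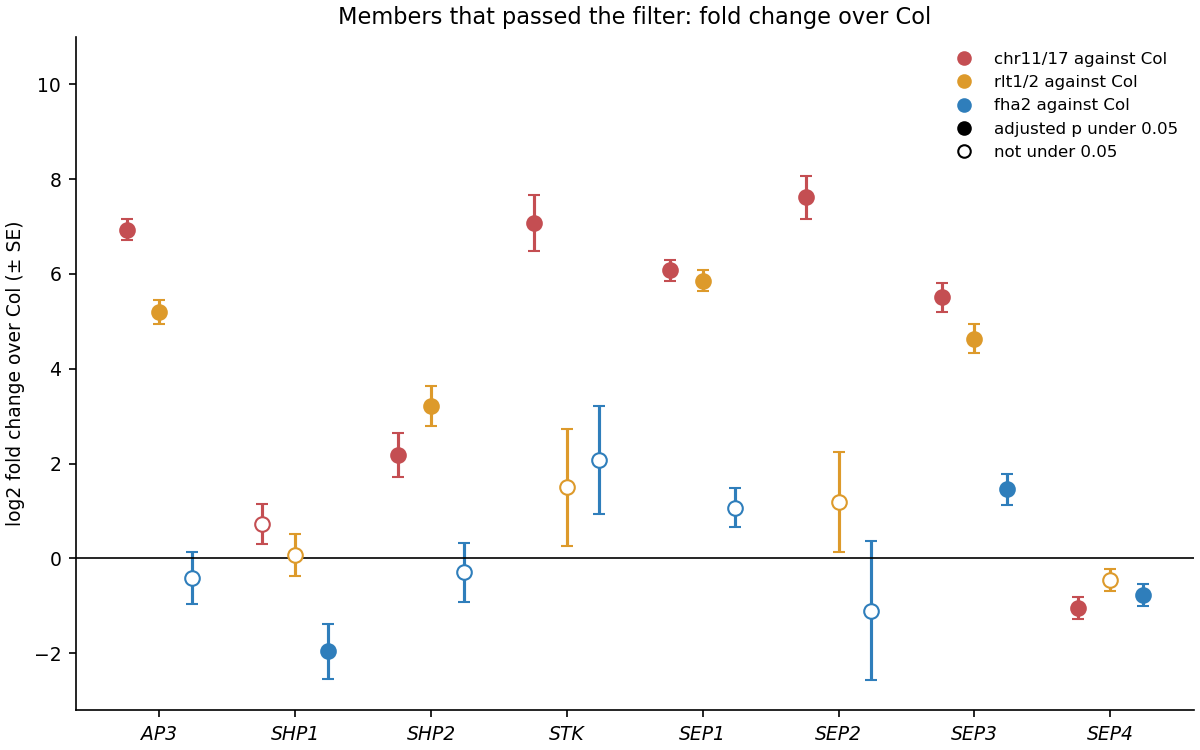
Log2 fold change over Col (vertical axis) with its SE for the 8 genes that passed the filter, in the libraries labelled chr11/17, in rlt1/2 and in fha2; filled points have an edgeR adjusted p under 0.05. SEP2 and STK reach 7.61 and 7.08 in the libraries labelled chr11/17, fitted values that depend on a prior count because Col had 2 and 1 counts, and SEP4 is below 0 in all 3.

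Set against each other, fha2 lay below the other mutants in most members. Against the libraries labelled chr11/17, 7 of 8 were called lower in fha2 and 0 higher by edgeR, where 35.0% and 35.6% of all genes were called lower and higher. AP3 was lower by -7.35 ± 0.223, SEP1 by -5.01 ± 0.187 and SEP3 by -4.04 ± 0.272 (edgeR, adjusted p = 1.89e-10, 6.49e-10 and 5.07e-08), while SEP4 was 0.27 ± 0.249 above (adjusted p = 0.341). Against rlt1/2, 5 of 8 were called lower in fha2 and 0 higher by edgeR, where 20.9% and 20.2% of all genes were called lower and higher. In both comparisons the number higher was also 0 at an unadjusted p under 0.05, with DESeq2 and with limma-voom. SEP2 and STK reached the filter only through the libraries labelled chr11/17, and AP3 and SHP2 only through those and rlt1/2. A difference from fha2 was therefore built into these counts of members, which support nothing by themselves. AP3 was lower by -5.61 ± 0.252 (adjusted p = 1.17e-07), SHP2 by -3.50 ± 0.415 (adjusted p = 6.13e-05) and SEP3 by -3.17 ± 0.266 (adjusted p = 5.28e-06) by edgeR.

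Between the libraries labelled chr11/17 and rlt1/2 the members split. In the libraries labelled chr11/17 AP3, SEP2, SEP3 and STK were called higher than in rlt1/2, 4 of 8, against 29.3% of all genes, and SHP2 was called lower, 1 of 8, against 30.1%. SEP2 and STK, at most 4 counts per library in rlt1/2, made the widest gaps. Both reached the filter only through the libraries labelled chr11/17, so a gap was built into the choice. With no filter on low counts AG was also below rlt1/2 in the libraries labelled chr11/17 (edgeR, adjusted p = 0.0154, 1 count against 19). Of those 19 counts 16 were in 1 rlt1/2 library, and AG was not called without chr11/17 replicate 1 (log2 fold change -3.12).

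Per transcript length, by the FPKM values the authors deposited, SEP3 was the most abundant member in the libraries labelled chr11/17 (203 ± 32.9 FPKM, SD, n = 2), in rlt1/2 (111 ± 1.68) and in fha2 (12.1 ± 6.24), while in Col SEP4 (5.66 ± 0.481) stood above SEP3 (3.70 ± 1.50). In the libraries labelled chr11/17 the order after SEP3 was AP3 (35.1 ± 2.22), SEP1 (13.8 ± 0.686), SEP2 (8.20 ± 1.71), STK (4.22 ± 0.325) and SEP4 (3.33 ± 0.297). STK and SEP4 there were the nearest neighbours in that order. In rlt1/2 SEP1 (11.9 ± 0.191) and AP3 (10.6 ± 1.32) differed by about their spread, followed by SEP4 (4.97 ± 0.283) and SHP2 (2.29 ± 0.191). In fha2 and Col all members other than SEP3 and SEP4 were below 0.5 FPKM. PI was at 0.265 ± 0.106 FPKM in the libraries labelled chr11/17 where AP3 was at 35.1, and at 0.210 ± 0.0141 in Col, where AP3 was at 0.235 ± 0.0636.

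**Figure D3:**
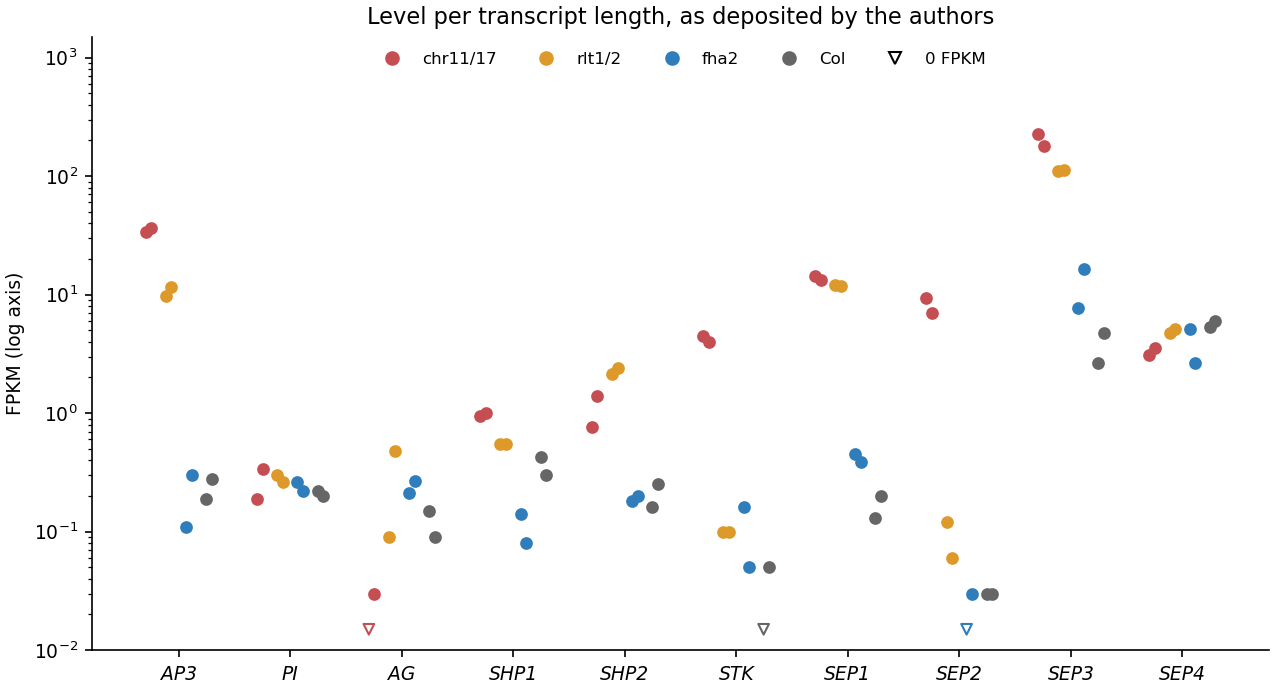
FPKM deposited by the authors for each gene and library on a log axis; open triangles at the bottom mark libraries at 0 FPKM, and points are single libraries. SEP3 is the highest gene in the libraries labelled chr11/17, in rlt1/2 and in fha2, and PI and AG stay below 0.5 FPKM in all 8 libraries.

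The main genes that switch the floral organ identity genes on were at or near 0 counts. LFY, the main activator, had 0 and 2 counts in the libraries labelled chr11/17, 2 and 1 counts in rlt1/2, 0 and 2 in fha2, and 0 and 0 in Col. UFO had 5 counts or fewer and WUS 2 or fewer in every library, and neither they nor LFY and CAL passed the filter. AP1 had 15 and 3 counts in the libraries labelled chr11/17, 8 and 11 counts in rlt1/2, 3 and 2 in fha2, and 2 and 0 in Col. Its count ratio to Col was 7.31 in the libraries labelled chr11/17 (exact 95% interval 1.75 to 64.9, edgeR adjusted p = 0.0426) and 7.66 in rlt1/2 (1.85 to 67.8, edgeR adjusted p = 0.0632), and the call in the libraries labelled chr11/17 ended without their replicate 1, among other settings. AP1 passed the filter only through 1 of the libraries labelled chr11/17 and 1 of rlt1/2, so a difference from Col was built into the choice.

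Of the 8 listed activators tested, edgeR called 3 higher (PAN, FT and AP1) and 3 lower (SPL3, SPL9 and FD) than Col in the libraries labelled chr11/17, against 34.8% and 34.4% of all genes. In rlt1/2 it called 2 higher (FT and ATX1) and 1 lower (SPL3), against 18.7% each way, and in fha2 1 higher (SPL9) and 0 lower, against 6.33% and 8.76%. These shares are of small numbers, and for the libraries labelled chr11/17 they are near those of all genes. The 0 lower in fha2 was 1 gene, SPL3, at an unadjusted p under 0.05 and 0 with DESeq2 and limma-voom. The SPL9 call in fha2 ended with RLE size factors (edgeR, adjusted p = 0.0543), the replicate block (edgeR, adjusted p = 0.0556) and DESeq2 (adjusted p = 0.184). It also ended without any 1 library of rlt1/2, fha2 or Col. The ATX1 call in rlt1/2 ended with DESeq2 (adjusted p = 0.0663) and without rlt1/2 replicate 1 or Col replicate 1. With total counts the numbers higher became 5, 6 and 2. The median log2 fold changes over Col were 0.25, 0.40 and 0.21. FT, the mobile flowering signal, had 16 and 16 counts in the libraries labelled chr11/17, 49 and 50 counts in rlt1/2, 3 and 4 in fha2, and 7 and 2 in Col. It rose by 3.12 ± 0.469 in rlt1/2 (adjusted p = 2.67e-04) and by 1.51 ± 0.545 in the libraries labelled chr11/17 (adjusted p = 0.026) by edgeR, and the second call ended with DESeq2 (adjusted p = 0.0617), the 2 genotypes alone, without either of the libraries labelled chr11/17 or without Col replicate 2 (0.86, edgeR adjusted p = 0.202). FT passed the filter only through those 2 genotypes. PAN, a bZIP activator of AG, rose by 1.28 ± 0.364 in the libraries labelled chr11/17 (edgeR, adjusted p = 0.00725), a call that ended without Col replicate 2 (adjusted p = 0.0598). SPL3, an age-dependent activator, fell by 2.51 ± 0.219 in the libraries labelled chr11/17 (adjusted p = 5.06e-07) and by 0.88 ± 0.187 in rlt1/2 (adjusted p = 0.00283), both by edgeR. FD, the bZIP partner of FT, fell by 1.85 ± 0.338 in the libraries labelled chr11/17 (edgeR, adjusted p = 3.33e-04).

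Among the 12 listed repressors tested, 8 were called lower and 1 higher in the libraries labelled chr11/17, with a median of -0.35, against 34.4% of all genes called lower and 34.8% higher. The 1 higher was MSI1, a histone-binding Polycomb subunit, which rose by 0.75 ± 0.0949 (edgeR, adjusted p = 1.40e-05). Of the other Polycomb genes in the list, FIE fell by 0.70 ± 0.134 (edgeR, adjusted p = 4.66e-04). EMF1, EMF2 and SWN were also called lower, calls that ended with total counts and without Col replicate 1. Those of EMF2 and SWN also ended with DESeq2 (adjusted p = 0.145 and 0.129) and with the 2 genotypes alone (edgeR, adjusted p = 0.0687 and 0.0739). The EMF2 call ended with RLE size factors and the replicate block too. CLF and LHP1 were not called. The number lower was 5 with total counts and 5 without Col replicate 1. In rlt1/2 1 was called lower and 2 higher (median -0.07), against 18.7% of all genes each way, and in fha2 0 lower (also at an unadjusted p under 0.05, with DESeq2 and with limma-voom) and 2 higher (median 0.14), against 8.76% and 6.33%, where total counts gave 7 higher. BPC1, a GA-repeat-binding repressor, averaged 9.12 ± 0.449 CPM in the libraries labelled chr11/17, 9.28 ± 0.00443 CPM in rlt1/2, 18.4 ± 0.227 CPM in fha2 and 16.2 ± 0.410 CPM in Col (SD, n = 2 each). It fell by 0.83 ± 0.108 (adjusted p = 1.97e-05) and by 0.80 ± 0.108 (adjusted p = 1.16e-04) in the libraries labelled chr11/17 and rlt1/2 by edgeR. LUG, a corepressor of AG, fell by 0.85 ± 0.122 (adjusted p = 4.32e-05) and ANT, an organ growth regulator that helps repress AG, by 1.29 ± 0.206 (adjusted p = 1.09e-04) in the libraries labelled chr11/17, by edgeR. AP2, which keeps AG out of the outer organs, averaged 35.2 ± 0.745 CPM in the libraries labelled chr11/17, 37.4 ± 0.0724 in rlt1/2, 36.0 ± 0.644 in fha2 and 39.0 ± 2.91 in Col, and was not called in any of the 3 (edgeR, adjusted p = 0.154, 0.642 and 0.404).

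The other MIKC-type MADS-box genes went in both directions. Of 22 tested, 5 were called higher and 10 lower than Col in the libraries labelled chr11/17 (median -0.41), 6 and 8 in rlt1/2 (median 0.28), and 0 and 5 in fha2 (median -0.29) by edgeR. Of all genes, 34.8% and 34.4%, 18.7% each way, and 6.33% and 8.76% were called higher and lower in those comparisons. At an unadjusted p under 0.05 SOC1 was the 1 gene higher in fha2, and DESeq2 and limma-voom called 0. With total counts the numbers higher were 8, 11 and 3. AGL15, which promotes embryo programmes, had 307 and 258 counts in the libraries labelled chr11/17, 147 and 140 counts in rlt1/2, 30 and 26 in fha2, and 26 and 36 in Col. It rose by 2.89 ± 0.206 in the libraries labelled chr11/17 (adjusted p = 8.32e-08) and by 1.90 ± 0.218 in rlt1/2 (adjusted p = 3.68e-05) by edgeR. AGL6, a close relative of the SEP genes, had 12 and 16 counts in the libraries labelled chr11/17, 14 and 5 counts in rlt1/2, 1 and 1 in fha2, and 1 and 1 in Col. The count ratio of AGL6 to Col was 11.4 (exact 95% interval 2.87 to 98.5) in the libraries labelled chr11/17, with an edgeR adjusted p of 0.00289. AGL6 passed the filter only through the libraries labelled chr11/17 and 1 of rlt1/2, so here too a difference was built into the choice. FLC, a repressor of flowering, had 0 and 1 count in the libraries labelled chr11/17, 2 and 2 counts in rlt1/2, 15 and 15 in fha2, and 66 and 84 in Col. The fall of FLC was the widest of the list, with a count ratio to Col of 0.00541 in the libraries labelled chr11/17 (exact 95% interval 1.36e-04 to 0.0306), 0.0215 in rlt1/2 (0.00578 to 0.0562) and 0.163 in fha2 (0.106 to 0.242), and edgeR adjusted p-values of 2.15e-07, 3.72e-06 and 7.81e-04. SVP, a repressor of flowering and of SEP3, fell by 2.49 ± 0.0909 in the libraries labelled chr11/17 (adjusted p = 3.58e-10) and by 0.61 ± 0.0825 in rlt1/2 (adjusted p = 1.25e-04), both by edgeR.

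Transcripts of the stamen, tapetum and pollen list were near the floor, and those of the carpel, ovule and fruit list were not. The stamen, tapetum and pollen list held 10 genes of the table, with DYT1 and MYB26 at 0 in all 8 libraries, and its summed level was 0.978 to 1.63 CPM in the libraries labelled chr11/17, 0.963 to 1.04 in rlt1/2, 0.177 to 0.482 in fha2 and 0.603 to 0.693 in Col. AMS was the 1 gene of that list that passed the filter, and it was not called. The 11 carpel, ovule and fruit genes summed to 43.8 to 48.3 CPM in the libraries labelled chr11/17, 48.6 to 53.0 in rlt1/2, 58.3 to 60.3 in fha2 and 51.3 to 54.1 in Col. Of 7 tested 1 was called higher and 2 lower than Col in the libraries labelled chr11/17, against 34.8% and 34.4% of all genes. Most of that sum was BEL1 and ETT, which had 19.0 and 21.5 CPM and 11.0 and 11.4 CPM in the libraries labelled chr11/17, against 24.3 and 23.2 CPM and 17.0 and 16.6 CPM in Col, so both were expressed in wild-type seedlings. CRC, the carpel gene, had 4 counts in 1 rlt1/2 library, 1 count in 1 fha2 library and 0 elsewhere.

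Leaf markers were lower in all 3 mutants than in Col. The 6 leaf genes summed to 18472 to 20071 CPM in the libraries labelled chr11/17, 44158 to 45364 in rlt1/2, 48578 to 51057 in fha2 and 72506 to 83505 in Col. All 6 were called lower than Col in the libraries labelled chr11/17 (median -2.10) and also in rlt1/2 (median -0.83). Of all genes, 34.4% and 18.7% were called lower there. In fha2 all 6 were called lower (median -0.47), against 8.76% of all genes, but 1 with total counts. All their calls ended without fha2 replicate 2. All but that of RBCS1A also ended without fha2 replicate 1, without Col replicate 1 and without either rlt1/2 library. Calls over all genes also fell in those settings. The 8 root genes summed to 1484 to 1526 CPM in the libraries labelled chr11/17, 1482 to 1574 in rlt1/2, 867 to 881 in fha2 and 696 to 738 in Col, mostly through PYK10, a root beta-glucosidase that rose by 1.31 ± 0.0964 in the libraries labelled chr11/17 and by 1.20 ± 0.0961 in rlt1/2 (edgeR, adjusted p = 1.10e-07 and 2.41e-06). Most called root genes went the other way in the libraries labelled chr11/17, where 1 was higher and 4 were lower than Col (SCR -0.74, COBL9 -0.67, PHT1;1 -0.39 and SMB -1.13, median of the list -0.42). In rlt1/2 2 were higher (PYK10 and PHT1;1) and 1 lower (SCR), and in fha2 1 was higher and 1 lower (EXPA7) by edgeR. Of all genes, 34.8% and 34.4%, 18.7% each way, and 6.33% and 8.76% were called higher and lower. The lower calls of COBL9, PHT1;1 and SMB ended with total counts (edgeR, adjusted p = 0.114, 0.521 and 0.0856) and without Col replicate 1. Those of SCR in rlt1/2 and EXPA7 in fha2 also ended with total counts. The part of the leaf and root genes in the members' differences was not tested.

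**Figure D4:**
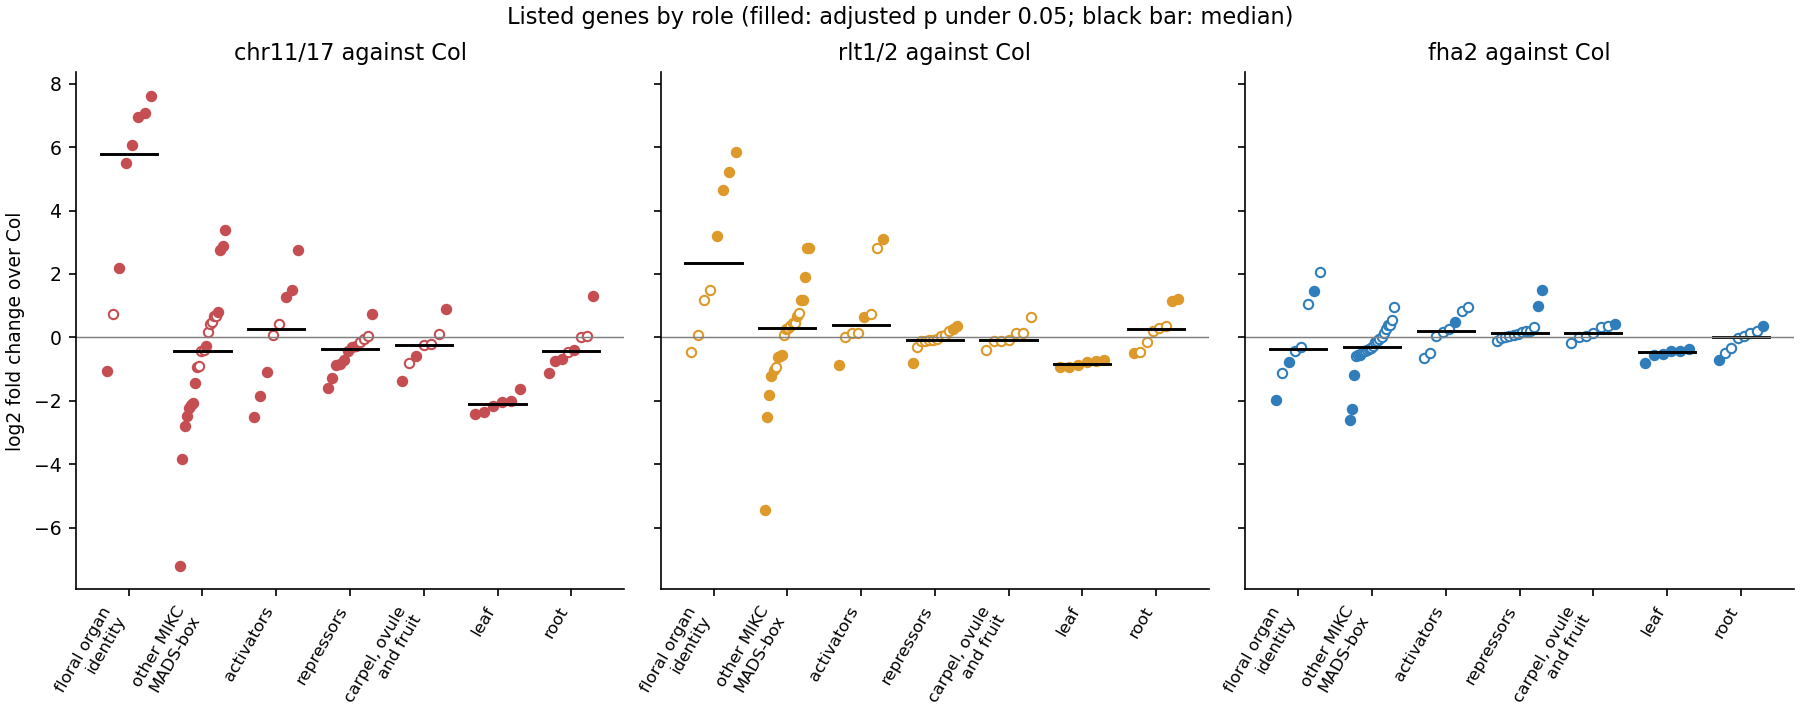
Log2 fold change over Col of each tested gene by list, in 1 panel each for the libraries labelled chr11/17, rlt1/2 and fha2; filled points have an edgeR adjusted p under 0.05 and the black bar is the list's median. The median of the 8 members tested is 5.79, 2.36 and -0.35 in the 3 panels, and the leaf genes lie below 0 in each.

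The profile over the 8 libraries was taken as the mean centred log2 CPM of the 8 members that passed the filter, without PI and AG. It was 2.38 and 2.26 in the libraries labelled chr11/17, then 0.83 and 0.76 in rlt1/2, -1.57 and -1.58 in fha2, and -1.72 and -1.37 in Col. Among genes with a symbol outside the list, the closest to it by root mean square log2 difference over the 8 libraries were OMTF3 (0.210), an O-methyltransferase, EHB1 (0.271), SBT3.5 (0.275), a subtilase, CYP72A8 (0.300), a cytochrome P450, GEA6 (0.309), a late embryogenesis abundant protein, and PUM8 (0.331), a Pumilio RNA-binding protein. OMTF3 averaged 247 ± 40.0 CPM in the libraries labelled chr11/17, 99.8 ± 8.60 in rlt1/2, 18.3 ± 0.737 in fha2 and 24.2 ± 1.44 in Col (SD, n = 2 each). The members themselves were farther from their own mean, with SEP3 nearest (0.898, rank 804 of 20866 genes) and SEP4 farthest (1.91). Of these members, SEP2 and STK passed the filter only through the libraries labelled chr11/17, and AP3 and SHP2 only through those and rlt1/2. Part of the shape of the profile was therefore built in, and the likeness of other genes to it supports nothing by itself.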

How the data were processed

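The authors deposited expected counts per gene (estimates, not always whole) for each of 8 libraries, with FPKM values beside them (recognised from the values) and, per the file headers, the authors' log2 fold changes, p-values and q-values of each mutant over Col. The submitters' processing notes name Bowtie2, RSEM, DESeq2 and TAIR10 without versions. No source used here states whether counting kept strand, so reads in bases shared by genes on opposite strands may not be told apart. Where an overlapping gene was added, its whole count was used, not only reads in the shared bases.

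The 10 members and the gene lists were chosen with earlier results of these data known. Expected counts were rounded, filtered with filterByExpr by genotype (20866 of 25198 genes kept, 8 of 10 members) and given TMM factors. A single edgeR 4.0.16 quasi-likelihood fit (R 4.3.3) to all 8 libraries, with genotype as its sole term, gave 6 comparisons. A gene was called at a Benjamini-Hochberg adjusted p under 0.05, adjusted over all genes tested. SE is the fold change divided by the square root of the F statistic. Genes with few counts are given by count ratios scaled to library size with exact 95% intervals. FPKM served only to compare levels between genes. From each list up to 4 called genes per direction with the smallest adjusted p could be named, plus AP1, LFY and AP2. UFO, WUS, CAL, CRC, SOC1, DYT1, MYB26, AMS, BEL1, EMF1, EMF2, SWN and LHP1 are named outside that rule. Likeness was computed on log2 CPM with a prior count of 2. The fit was tested on simulated counts.

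Promoters and coding sequences were read from RefSeq TAIR10.1, where 25198 of 25198 gene IDs matched, and aligned globally with Biopython 1.88. The alternatives tried were total counts, RLE size factors, a filter of 1 CPM in 2 libraries, no filter, DESeq2 1.42.0, limma-voom (limma 3.58.1), the 2 compared genotypes alone, a replicate block, each library left out, overlapping genes added and close copies summed.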

Additional observations from a re-analysis of the deposited data

How the results depend on the processing

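Of 48 results (8 genes in 6 comparisons), 35 kept their call in every alternative in which they were tested and 13 did not. Sums of close copies were left out of these counts and of the member counts below, and some results were not tested in every alternative. In rlt1/2 against Col the sum of SEP1 and SEP2 was called (adjusted p = 4.50e-08), where SEP2 alone was not (adjusted p = 0.403, edgeR). The number of members called higher than Col in the libraries labelled chr11/17 (6) and rlt1/2 (4) did not move by over 1.5 times in any alternative. The number lower in the libraries labelled chr11/17 was 1, and 1 to 2 with a library left out. In rlt1/2 it was 0, and 1 with the 2 genotypes alone and 0 to 1 with a library left out. In fha2 against Col the number higher was 1, and 2 with total counts, 2 with overlapping genes added and 0 to 1 with a library left out, and the number lower was 2, and 1 with total counts, DESeq2, the 2 genotypes alone or overlapping genes added, and 0 to 2 with a library left out. In fha2 against the libraries labelled chr11/17 the number higher was 0, and 1 with no filter (AG), 1 with overlapping genes added and 0 to 1 with a library left out. In fha2 against rlt1/2 it was 0, and 1 with overlapping genes added. In the libraries labelled chr11/17 against rlt1/2 the number lower was 1, and 3 with no filter, 0 with DESeq2, 2 with the 2 genotypes alone and 0 to 3 with a library left out. With a library of fha2, Col or rlt1/2 left out, calls over all genes in fha2 against Col also fell. The cause of these moves was not tested. The sum of SHP1 and GAUT15 went the other way from SHP1, to 0.84 in fha2 against Col, 0.80 against the libraries labelled chr11/17 and 0.56 against rlt1/2. GAUT15 made up most of that sum, so it does not give the direction of SHP1. The fha2 calls gained with overlapping genes added were of this sum. SWN, a Polycomb methyltransferase, reversed with total counts in the libraries labelled chr11/17 against Col, to 0.024.

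The replicate numbers do not pair the libraries: correlations of same-numbered libraries' deviations ran from -0.110 to 0.0702. With the replicate block the member calls were 7, 4, 3, 7, 5 and 5 in the 6 comparisons, the same numbers as without it, and calls over all genes were 14293 against 14426 in the libraries labelled chr11/17 over Col, 7653 against 7824 in rlt1/2, and 3045 against 3148 in fha2. In these libraries 3 counts are 0.136 to 0.143 CPM. Counts were too low for small differences to be detectable for PI and AG throughout and for SEP2 and STK outside the libraries labelled chr11/17. The same holds for AP3 and SHP2 in fha2 and Col and for SEP1 in Col.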
